A study of Mus musculus with 11 samples.

Results

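Arteries and veins are lined by endothelial cells (ECs) that differ in the genes they express, and 8 of the genes that mark or set this difference were followed in sorted mouse liver ECs. They were picked by symbol in the raw count table (*Efnb2*, *Ephb4*, *Nr2f2*, *Sox17*, *Gja4*, *Gja5*, *Gja1* and *Bmx*), and all 8 were found among the 29307 genes listed. All 8 were also among the 12905 genes with enough counts to be tested. The libraries came from male C57BL/6J mice aged 10 to 12 weeks, 6 of them conventionally raised under specific-pathogen-free conditions (CONV-R) and 5 germ-free (GF), that is, kept without any microbe in isolators. Both groups came from the same colonies and ate the same diet. Each library held the RNA of 1 mouse, amplified from 20 ng, so that 6 and 5 mice are the replicates. The preparations differed by group before this step. The paper reports fewer sorted ECs and less total RNA from GF than from CONV-R livers, and describes the sorted cells as of low viability. The part of this in the differences below was not tested. The liver cells had been enriched with magnetic beads for CD146 and then sorted as CD31+CD105+CD146+, a gate that was meant for sinusoidal, microvascular ECs; larger vessels carry these proteins too, and the gate held no arterial or venous marker.

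*Efnb2* encodes ephrin-B2, a ligand fixed in the membrane of arterial ECs, and *Ephb4* encodes its receptor on venous ECs; signals run both ways where the cells touch. *Nr2f2* encodes COUP-TFII, the nuclear receptor that keeps venous identity by holding Notch signaling down, while *Sox17* encodes a transcription factor that acts for the arterial fate together with Notch. *Gja4*, *Gja5* and *Gja1* encode connexins, the proteins of gap junctions, of which the products of *Gja4* and *Gja5* are typical of arterial endothelium. *Bmx* encodes a Tec family kinase of arterial ECs and the endocardium. Most of the liver's endothelium is sinusoidal, which is neither of these, and lies between the inflow from portal vein and hepatic artery and the outflow into the central vein.

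Libraries held 7922855 to 14669352 counts in CONV-R and 7242717 to 16164588 in GF mice. Levels are in CPM, that is, counts divided by the TMM-scaled library total and put on a common scale, and differences are log2 fold changes (Log2FC) of GF minus CONV-R tested with the quasi-likelihood F-test of edgeR; the Benjamini-Hochberg adjustment ran across every tested gene, and a gene was called at an adjusted p under 0.05. The markers of sinusoidal endothelium (13 tested genes, among them *Stab2*, its scavenger receptor) summed to 32920 to 41890 CPM in CONV-R and 32530 to 45260 CPM in GF mice. Of the 13, 0 passed the test, 5 had an unadjusted p under 0.05 and 2 were called by DESeq2. Over all genes tested by each method these shares were 7.48%, 23% and 9.83%, and they apply to the lists below as well. Of 8 markers of smooth muscle, the cells of the arterial wall, *Smtn* had 6038 and 3839, *Tagln* 496 and 412 and *Myh11* 60 and 62 counts over all CONV-R and all GF libraries, while the other 5, *Acta2* among them, had 2 to 24. The CONV-R 3 library lay apart from the other CONV-R libraries on the second principal component (-48.15, against 6.01 to 17.55), and it and GF 1 held extreme values for several of the 8 genes, so the Log2FC of the 7 genes other than *Gja1* is also given without both, an alternative added after the data were seen.

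Of the 8 genes, 1 differed between the groups. *Gja4* was 1.92-fold higher in GF mice, and the other 7 did not pass the test. Over all tested genes, 965 of 12905 (7.48%) passed it. *Gja5*, the other arterial connexin, had nearly the same Log2FC as *Gja4* but a wider spread, with an adjusted p of 0.0541. Unadjusted p-values were under 0.05 for 6 of the 8 genes (all but *Gja1* and *Bmx*), where 23% of all tested genes were, and this number was 2 (*Gja4* and *Nr2f2*) when CONV-R 3 and GF 1 were both left out, 2 without CONV-R 3, and 3 without GF 1 or GF 2. The direction did not follow the arterial or venous label of the gene. Both *Efnb2* and *Ephb4* had a positive Log2FC, and both *Sox17* and *Nr2f2* a negative one. The plot of CPM by mouse shows all values.

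**Figure D1:**
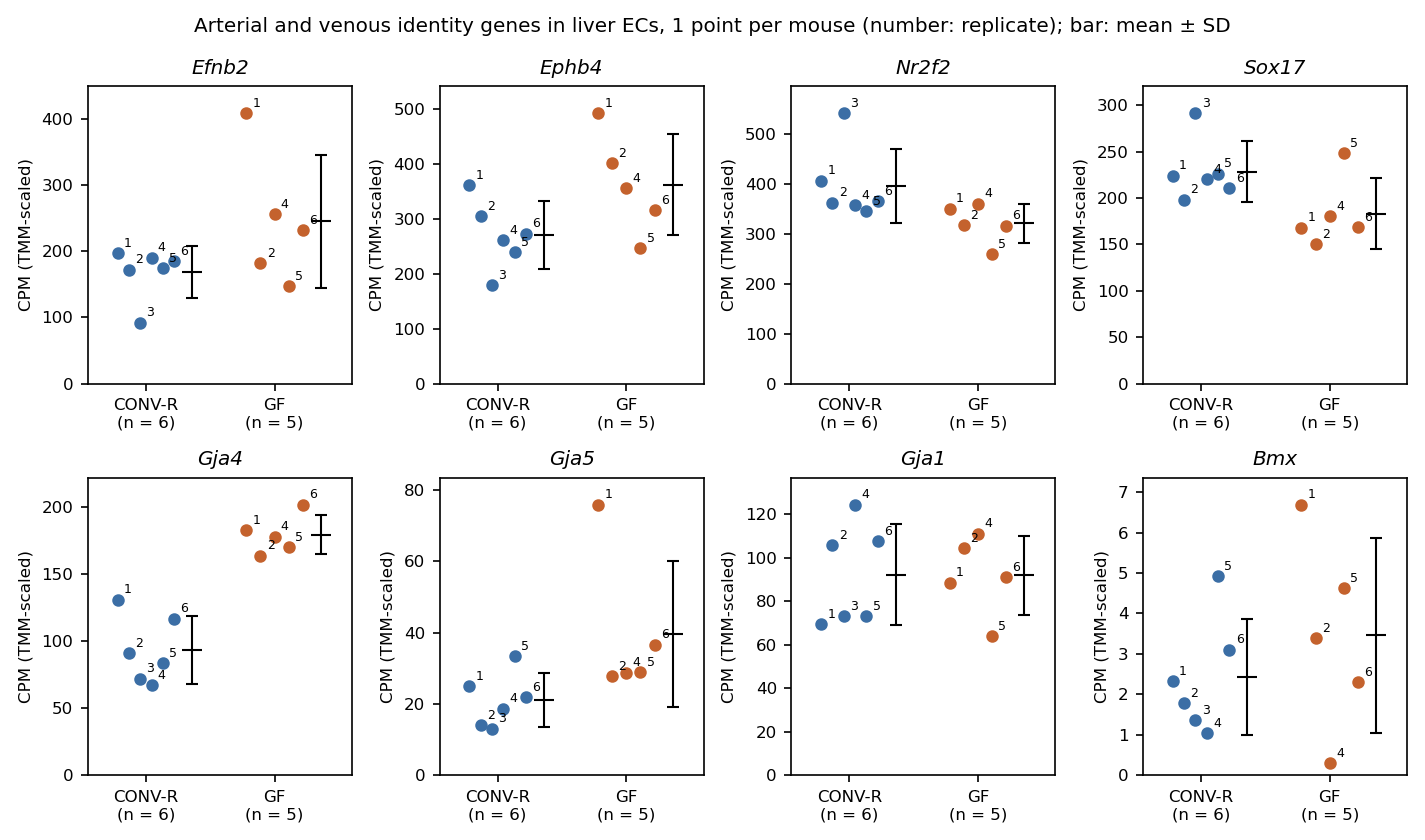
CPM of the 8 arterial and venous identity genes in each of the 6 CONV-R and 5 GF mice, with the replicate number beside each point and the group mean ± SD as a bar. For *Gja4* alone of the 8 the groups do not overlap (67.1 to 130.9 CPM in CONV-R, 163.6 to 201.8 CPM in GF mice), and CONV-R 3 or GF 1 is the highest of all mice for *Efnb2*, *Ephb4*, *Nr2f2*, *Sox17*, *Gja5* and *Bmx*.

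*Gja4* (ENSMUSG00000050234, chr4:127311421-127314039, minus strand, GRCm38) is a short gene of 2 exon blocks, with 999 coding bases of 1685 exonic bases. Its CPM in CONV-R mice ran from 67.1 through a median of 87.2 to 130.9. The GF libraries 1, 2, 4, 5 and 6 had 182.7, 163.6, 177.8, 170.0 and 201.8 CPM. Every GF mouse thus lay above every CONV-R mouse, which was the case for 5.59% of all tested genes. Means were 179.2 ± 14.6 (SD, n = 5) in GF and 93.5 ± 25.3 CPM (SD, n = 6) in CONV-R mice, and the GF mice were also the closer together, with a coefficient of variation of 8.15% against 27.1%. The Log2FC was 0.94 ± 0.16 (SE), with a 95% interval of 0.61 to 1.27 and an adjusted p of 0.00141 (edgeR). In the order of all tested genes by p-value it stood at position 127, and by Log2FC at position 605 from the top. It passed the test in each alternative run, with adjusted p between 2.61e-06 and 0.00736 under the other methods and between 0.000397 and 0.00595 with 1 mouse left out. Without both CONV-R 3 and GF 1 its Log2FC was 0.87 (adjusted p = 0.00392).

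*Gja5* (ENSMUSG00000057123, chr3:96904693-97077416, plus strand) was weaker in counts. Its CPM in CONV-R mice ran from 13.0 through a median of 20.3 to 33.4, and the GF libraries 1, 2, 4, 5 and 6 had 75.9, 27.8, 28.8, 28.8 and 36.6 CPM. GF 1 stood far above the rest, and the other 4 GF values lay above 5 of the 6 CONV-R values, but CONV-R 5 lay within the GF range. The Log2FC was 0.92 ± 0.28 (SE), with a 95% interval of 0.33 to 1.51. Without GF 1 it was 0.54 (adjusted p = 0.198), and without both CONV-R 3 and GF 1 it was 0.43 (adjusted p = 0.236). It passed the threshold under DESeq2 (adjusted p = 0.0187; DESeq2 called 1527 of 15540 genes, 9.83%), with no filter on low counts (0.00524), and without CONV-R 5 (0.0302), GF 2 (0.0499) or GF 5 (0.0406). The *Gja5* exons share 165 bases with those of *Gpr89* on the opposite strand. The strand setting of the counting is not stated, and *Gpr89* itself had a Log2FC of -0.03.

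*Gja1* (ENSMUSG00000050953, chr10:56377330-56402513, plus strand), the connexin that is not typical of arterial ECs, had nearly the same mean in both groups. Its CPM in CONV-R mice ran from 69.3 through a median of 89.5 to 124.4, and the GF libraries 1, 2, 4, 5 and 6 had 88.5, 104.5, 111.0, 64.0 and 91.2 CPM. The ranges overlapped almost wholly. The Log2FC was -0.01 with a 95% interval of -0.37 to 0.36, and its sign changed with the method. On the scale of CPM per kilobase of exon, *Gja4* exceeded *Gja1* by a geometric mean of 6.15 times in CONV-R and 12.1 times in GF mice. The log2 ratio within each library ran from 1.71 to 3.52 in CONV-R and from 3.25 to 4.02 in GF mice, and 1 CONV-R library lay within the GF range. *Gja4* exceeded *Gja5* by 15.6 times in CONV-R and 16.7 times in GF mice on the same scale, with the widest departures downwards in CONV-R 5 and GF 1. Both ratios depend on the length used. Per kilobase of coding sequence, *Gja4* was at 1.16 times *Gja1* in CONV-R, with libraries on either side of equality, and at 2.27 times in GF mice, and at 5.12 and 5.52 times *Gja5*. These ratios were not tested.

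The start of *Gja4* and that of *Gja5* are shown because these 2 connexins had the largest Log2FC of the 8 genes. The 250 bases before each start come from RefSeq promoter sequences on GRCm38.p6 and read 5′ to 3′ on the gene's strand; the RefSeq start of *Gja5* lies inside the longer GENCODE span given above. They are printed with capitals for CACCC, the box bound by Krüppel-like factors, or its complement GGGTG.
Gja4, chr4:127314040-127314289, minus strand: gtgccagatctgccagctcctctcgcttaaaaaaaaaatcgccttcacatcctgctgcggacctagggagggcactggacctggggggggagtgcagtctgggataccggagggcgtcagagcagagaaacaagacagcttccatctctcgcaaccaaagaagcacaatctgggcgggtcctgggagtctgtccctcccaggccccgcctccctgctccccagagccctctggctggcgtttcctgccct
Gja5, chr3:97032152-97032401, plus strand: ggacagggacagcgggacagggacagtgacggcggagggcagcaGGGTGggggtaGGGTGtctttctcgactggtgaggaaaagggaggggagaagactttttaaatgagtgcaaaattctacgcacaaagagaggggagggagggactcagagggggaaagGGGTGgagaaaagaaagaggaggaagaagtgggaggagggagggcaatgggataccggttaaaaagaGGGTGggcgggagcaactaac
The *Gja5* window held 4 such boxes, all on the minus strand and between 206 and 17 bases before the start, and the *Gja4* window held 0. A match was present in 52.0% of the 32851 promoters of the table at this length. On either strand, neither window held TGGGAA (the core bound by RBPJ, the DNA-binding partner of Notch; 21.6% of all promoters), AACAAT (bound by SOX factors; 9.42%), CCGGAA (bound by ETS factors; 12%) or AGGTCA (the nuclear receptor element; 14.0%). TGGGAA and CCGGAA share their last letters, GGAA. Of the 8 genes, 7 had an entry in the table (all but *Sox17*), and the remaining 5 windows held 5 matches in all: 1 box each for *Efnb2* and *Nr2f2*, 2 boxes for *Ephb4*, and TGGGAA 1 time for *Bmx*, at 178 to 173 bases before its start. A match of letters in a window is a description only.

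*Efnb2* (ENSMUSG00000001300, chr8:8617434-8661242, minus strand), the arterial ligand, ran from 92.1 through a median of 179.8 to 197.3 CPM in CONV-R mice. The GF libraries 1, 2, 4, 5 and 6 had 408.7, 181.6, 255.8, 147.3 and 231.5 CPM. GF 1, 4 and 6 lay above every CONV-R mouse, whereas GF 2 and GF 5 lay within the CONV-R range, and CONV-R 3 lay far below the other CONV-R mice. Means were 245.0 ± 100.8 (SD, n = 5) against 168.6 ± 38.6 CPM (SD, n = 6), a Log2FC of 0.54 ± 0.22 (SE; 95% interval 0.07 to 1.01; adjusted p = 0.157). Without GF 1 the Log2FC was 0.28 (adjusted p = 0.455), and without both CONV-R 3 and GF 1 it was 0.15 (adjusted p = 0.567).

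*Ephb4* (ENSMUSG00000029710, chr5:137350109-137378669, plus strand), its venous receptor, had the same sign of difference. CPM in CONV-R mice ran from 179.7 through a median of 267.5 to 362.2, and the GF libraries 1, 2, 4, 5 and 6 had 492.9, 402.0, 355.4, 247.1 and 315.9 CPM. Again CONV-R 3 was lowest and GF 1 highest. The Log2FC was 0.42 ± 0.18 (SE; 95% interval 0.06 to 0.79; adjusted p = 0.154), and 0.20 without both libraries (adjusted p = 0.462). Within each library, the log2 ratio of *Efnb2* to *Ephb4* per kilobase of exon was -1.25 ± 0.23 (SD, n = 6) in CONV-R and -1.18 ± 0.34 (SD, n = 5) in GF mice. The difference between these means was smaller than the spread between mice, and without CONV-R 3 and GF 1 they were -1.20 and -1.27. With the groups' means taken out, *Efnb2* and *Ephb4* had a Pearson r of 0.81 over the 11 libraries, which placed *Ephb4* at position 262 of 12904 genes in likeness to *Efnb2*. Over the 9 libraries without CONV-R 3 and GF 1, r was 0.47 and the position 2645. *Nr2f2* moved the other way. Its r with *Efnb2* was -0.11 over 11 and 0.87 over 9 libraries (position 120), and its r with *Ephb4* was -0.02 and 0.81 (position 334).

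*Nr2f2* (ENSMUSG00000030551, chr7:70351944-70366735, minus strand), the venous transcription factor, ran from 345.8 through a median of 363.9 to 542.3 CPM in CONV-R mice. The GF libraries 1, 2, 4, 5 and 6 had 350.6, 317.2, 360.8, 258.9 and 316.8 CPM. CONV-R 3 was highest and GF 5 lowest, and 3 of the 5 GF mice lay below all CONV-R mice. The Log2FC was -0.31 ± 0.13 (SE; 95% interval -0.57 to -0.04; adjusted p = 0.163), -0.20 without CONV-R 3, and -0.23 without both CONV-R 3 and GF 1 (adjusted p = 0.214). The *Nr2f2* exons share 643 bases with the noncoding *B130024G19Rik* on the opposite strand, which held 7343 counts in CONV-R and 3841 in GF mice and had a Log2FC of -0.42 (adjusted p = 0.0564). Without the strand setting, reads of the 2 genes in that stretch cannot be told apart.

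*Sox17* (ENSMUSG00000025902, chr1:4490931-4497354, minus strand), the arterial transcription factor, had a Log2FC of the sign of *Nr2f2* and not of *Gja4* or *Efnb2*. CPM in CONV-R mice ran from 198.3 through a median of 222.2 to 291.5, and the GF libraries 1, 2, 4, 5 and 6 had 168.1, 150.6, 180.2, 248.2 and 168.2 CPM. The GF mice other than GF 5 lay below all CONV-R mice. The Log2FC was -0.32 ± 0.13 (SE; 95% interval -0.60 to -0.04; adjusted p = 0.161), and without GF 5 it was -0.45 and passed the test (adjusted p = 0.0252). Without CONV-R 3 it was -0.24 (adjusted p = 0.25), and without both CONV-R 3 and GF 1 -0.21 (adjusted p = 0.361). GF 5 had the lowest total of all libraries. The *Sox17* exons share 804 bases with *Gm37587* on the opposite strand, with 331 counts in CONV-R and 135 in GF mice.

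*Bmx* (ENSMUSG00000031377, chrX:164192842-164258193, minus strand), the arterial kinase, had only 181 counts over all CONV-R and 193 over all GF libraries. CPM in CONV-R mice ran from 1.04 through a median of 2.05 to 4.93, and the GF libraries 1, 2, 4, 5 and 6 had 6.69, 3.38, 0.29, 4.63 and 2.31 CPM. The lowest and the highest of all values were both GF mice. The Log2FC of 0.52 had a 95% interval of -0.64 to 1.67, which includes 0 (adjusted p = 0.621). Without CONV-R 3 and GF 1 it was -0.00. The related kinase *Tec* had 1.07 CPM in CONV-R and 1.56 CPM in GF mice (adjusted p = 0.604), and the 3 others of the family were too low to be tested.

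**Figure D2:**
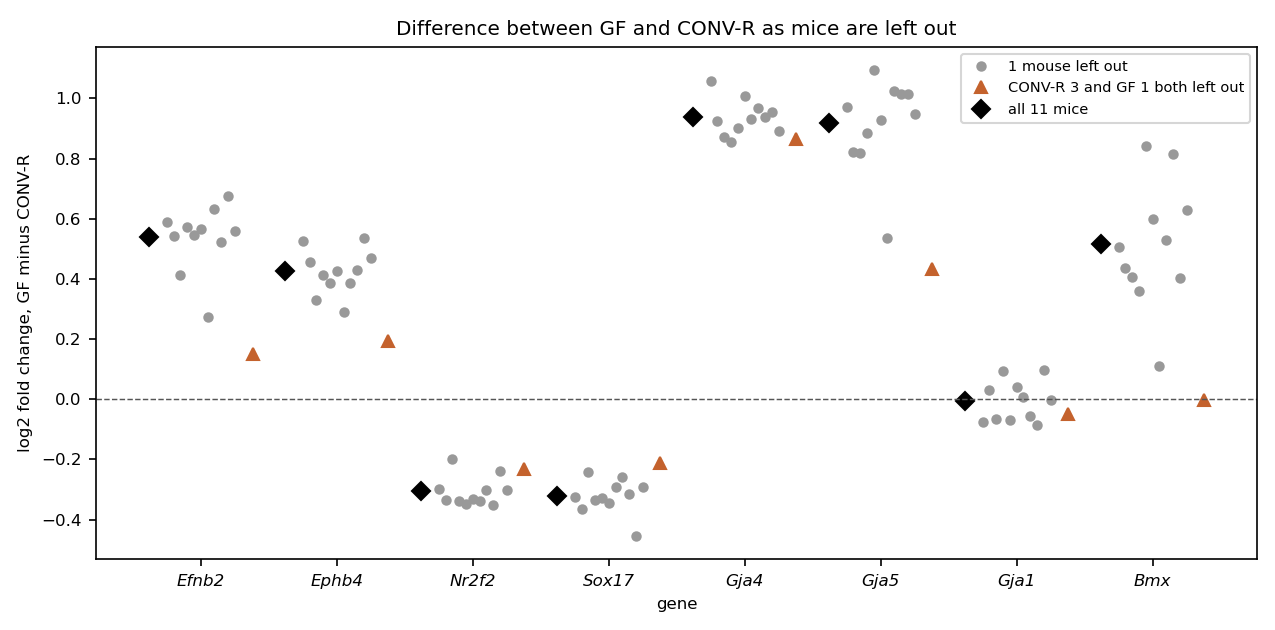
Log2FC of GF minus CONV-R for the 8 genes with all 11 mice (diamonds), with each mouse left out in turn (grey points) and with CONV-R 3 and GF 1 both left out (triangles). *Gja4* stays between 0.85 and 1.06, whereas *Efnb2* is at 0.15 and *Gja5* at 0.43 without the 2 libraries.

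Compared per kilobase of exon, the levels of the 8 genes formed a graded order. In CONV-R mice, *Ephb4* (58.2 ± 13.3 CPM per kilobase of exon), *Gja4* (55.5 ± 15.0), *Sox17* (47.9 ± 6.8) and *Nr2f2* (46.0 ± 8.6) came first (SD, n = 6), and the ranges of neighbours in this order overlapped. *Efnb2* followed with 24.6 ± 5.6 CPM per kilobase, then *Gja1* with 8.99 ± 2.27, *Gja5* with 3.65 ± 1.32 and *Bmx* with 0.78 ± 0.46, and from *Nr2f2* downwards each gene's highest mouse lay below the lowest mouse of the gene before it. In GF mice *Gja4* came first with 106.3 ± 8.7 CPM per kilobase of exon, ahead of *Ephb4* with 78.2 ± 19.9 (SD, n = 5), with overlapping ranges. The order of the other 6 was that of CONV-R mice, though *Nr2f2* with *Efnb2* and *Gja1* with *Gja5* now overlapped. The upper part of the order, and how far *Gja1* lies below it, depend on the length used. Per kilobase of coding sequence, *Nr2f2* was first in both groups (308.7 in CONV-R and 249.7 in GF mice) and *Efnb2* was second (167.2 and 243.1), because most of their exon length is untranslated. The means of *Gja1*, *Gja5* and *Bmx* stayed last in that order. In CONV-R mice, however, *Gja1* (80.5 ± 20.4 CPM per coding kilobase) then overlapped *Ephb4* (90.4 ± 20.6) and *Gja4* (93.6 ± 25.3), with *Gja5* at 18.7 ± 6.7.

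**Figure D3:**
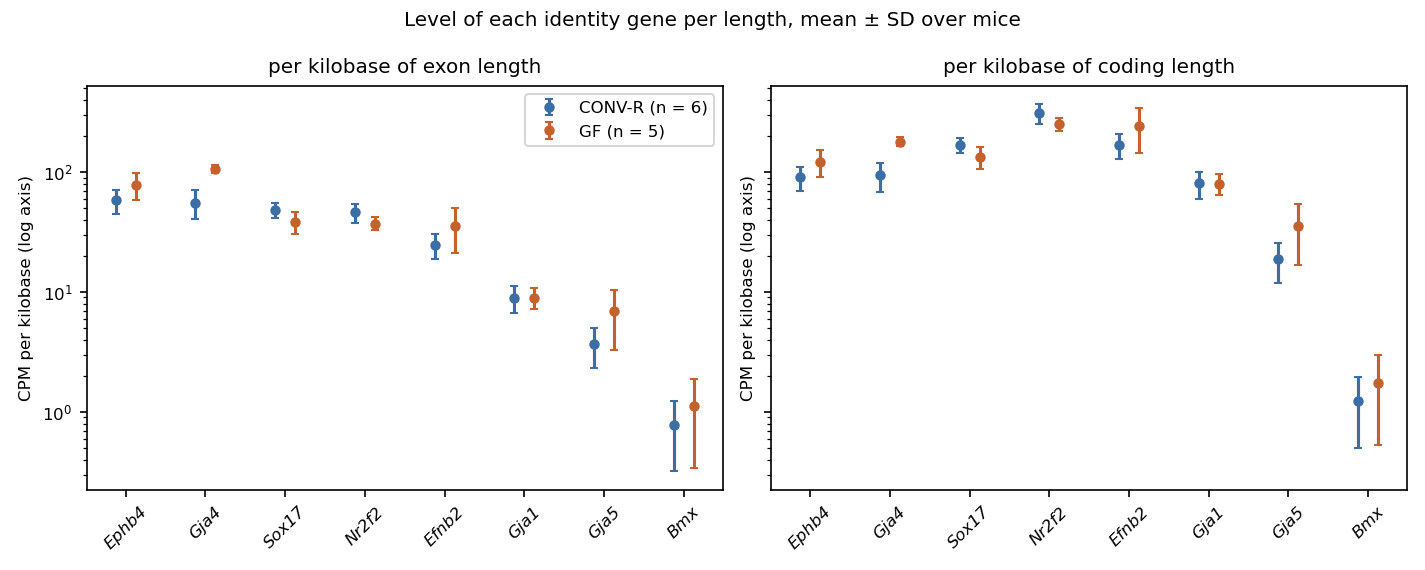
Level of each of the 8 genes in CPM per kilobase (log axis) of exon length on the left and of coding length on the right, as mean ± SD over the 6 CONV-R and 5 GF mice. *Gja1*, *Gja5* and *Bmx* are the 3 lowest on both scales, and *Gja4* moves from second to first in GF mice per exon length.

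Other genes that are high in arterial endothelium were described as a list. Of its 23 genes 20 could be tested, and 9 of them passed the test and were higher in GF mice, where 4.8% of all tested genes were. By edgeR 0 of the list were lower, with 14 at an unadjusted p under 0.05, all higher, and 13 called by DESeq2. All 20 had a positive Log2FC, with a median of 0.62, against a median of -0.01 over all tested genes. *Igfbp3*, a binding protein for insulin-like growth factors, was 12-fold higher (52.6 ± 28.2 against 4.33 ± 5.26 CPM; Log2FC 3.58 ± 0.62, SE; adjusted p = 0.00249). Without CONV-R 5 its Log2FC was 4.45. *Jag2*, a Notch ligand, was 8.99-fold higher (6.94 ± 4.28 against 0.75 ± 0.44 CPM; adjusted p = 0.00119). Its Log2FC was 3.17 here and 1.93 in the authors' normalized values. *Sema3g*, a semaphorin of arterial ECs, was 6.04-fold higher (10.1 ± 4.8 against 1.64 ± 1.49 CPM; adjusted p = 0.00481), and the chemokine gene *Cxcl12* was 5.07-fold higher (42.3 ± 20.5 against 8.29 ± 5.89 CPM; adjusted p = 0.00224). Each of these 4 was weak in CONV-R mice and without overlap between the groups. Of the 20 tested genes 4 (*Jag2*, *Sema3g*, *Mgp* and *Stmn2*) passed the filter on low counts only through the GF libraries, in which they were higher. The filter thus favoured a positive Log2FC for these 4, and the median of 0.62 includes them. Of the other 16 genes 6 were called. The other 5 that passed, named after their values were seen, were *Notch4* (Log2FC 0.56), *Hey1* (1.14), *Fbln5* (1.42), *Mgp* (2.19, and 2.98 without CONV-R 5) and *Ltbp4* (0.58), of which *Mgp* kept its call in 5, *Ltbp4* in 4 and *Fbln5* in 9 of the 11 fits with 1 mouse left out. The most abundant gene of the list, *Nrp1*, a receptor for semaphorins and VEGF, was at 1155 ± 233 CPM in CONV-R and 1283 ± 209 CPM in GF mice (adjusted p = 0.586). *Dll4*, the main Notch ligand of arterial ECs, had a Log2FC of 0.23 (adjusted p = 0.483). Without CONV-R 3 and GF 1, 7 of the list were higher, and 5 were with at least 10 counts required in every library, a filter that *Jag2*, *Igfbp3*, *Sema3g* and *Mgp* did not pass. Beside these genes, bile duct markers summed to 0.82 to 9.21 CPM in CONV-R and 13.7 to 38.0 CPM in GF mice (2 of 7 could be tested), and Kupffer cell markers to 86.0 to 222.4 and 196.8 to 930.7 CPM. The part of these cells in the result was not tested. In bulk RNA a larger share of arterial ECs and more of these RNAs per cell cannot be told apart.

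Genes that are high in venous endothelium showed no common direction. Of the 17 on the list 14 could be tested, 7 with a positive and 7 with a negative Log2FC, and the median was 0.02. *Vcam1*, a leukocyte adhesion receptor, was 1.87-fold higher in GF mice (282.6 ± 36.0 against 151.0 ± 32.4 CPM; Log2FC 0.90 ± 0.14, SE; adjusted p = 0.000661). *Nr2f1*, which encodes the close relative of the *Nr2f2* product, was lower (14.2 ± 5.5 against 27.1 ± 6.3 CPM; Log2FC -0.93 ± 0.22, SE; adjusted p = 0.0192), though not without CONV-R 3 and GF 1 (Log2FC -0.75, adjusted p = 0.0668) or without GF 6 (adjusted p = 0.0566). The most abundant gene, *Flt4*, which encodes a VEGF receptor, had 1539 ± 219.5 CPM in CONV-R and 2039 ± 386 CPM in GF mice (adjusted p = 0.0816). *Vwf*, whose product binds platelets, had a Log2FC of 0.76 (adjusted p = 0.223), and *Rspo3*, which enhances Wnt signaling from central vein ECs, of -0.82 (adjusted p = 0.156).

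**Figure D4:**
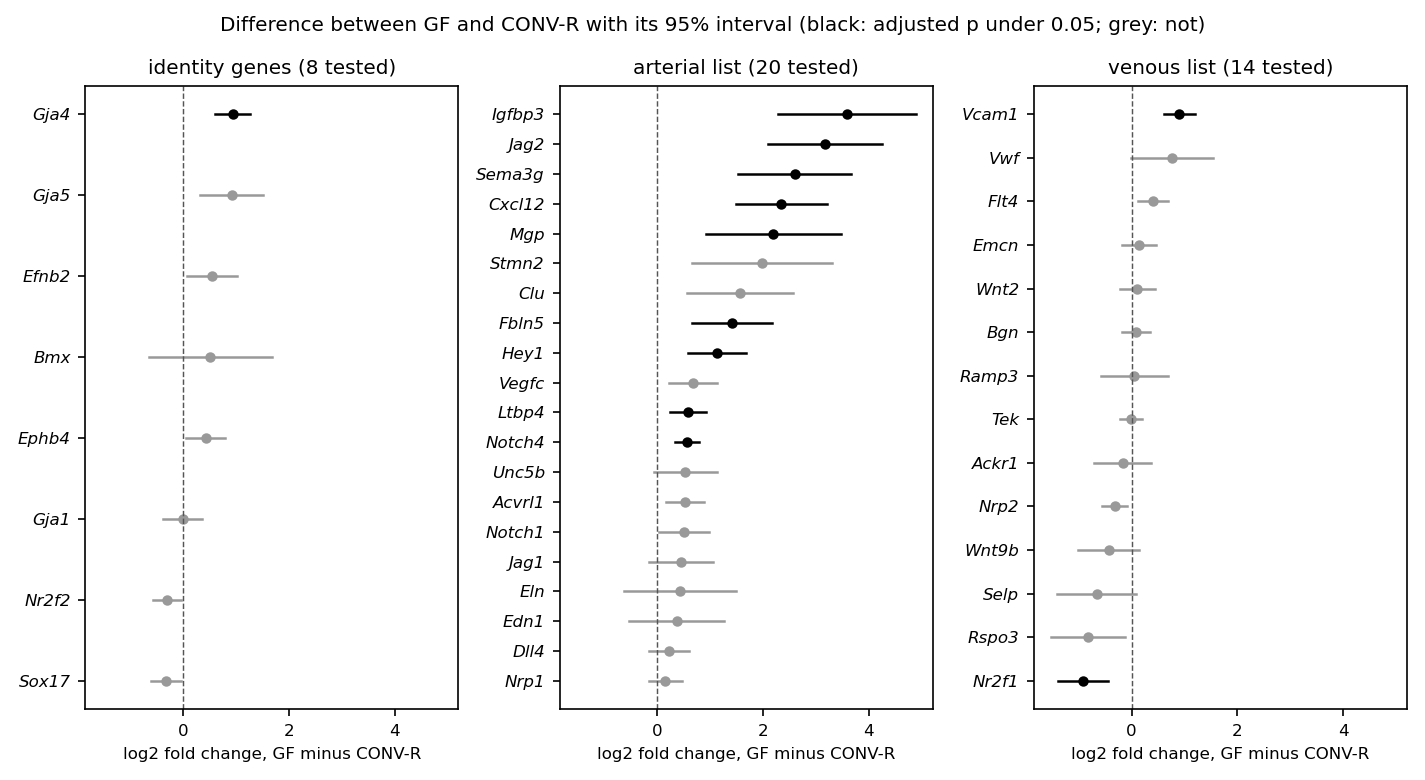
Log2FC of GF minus CONV-R with its 95% interval for the 8 identity genes, the 20 tested genes of the arterial list and the 14 of the venous list; black marks an adjusted p under 0.05 (edgeR). All 20 arterial genes lie right of 0, with 9 of them in black, whereas the venous genes lie on both sides with *Vcam1* and *Nr2f1* in black. Of the 20, *Jag2*, *Sema3g*, *Mgp* and *Stmn2* passed the filter on low counts only through the GF libraries, which favours a positive sign. Of the other 16, 6 are in black.

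Among 25 regulators of arterial and venous fate, 19 were tested, with 3 higher and 2 lower in GF mice (5 of 19, against 7.48% of all tested genes). *Klf4* (101.5 ± 12.5 against 49.7 ± 12.5 CPM; adjusted p = 0.00088) and *Klf2* (328.1 ± 61.9 against 168.9 ± 40.8 CPM; adjusted p = 0.0015), the Krüppel-like factors that respond to blood flow, were 2.04-fold and 1.94-fold higher. *Fli1*, an ETS factor, was 1.45-fold higher (adjusted p = 0.00628). *Erg*, another ETS factor of ECs, was lower (148.3 ± 18.7 against 237.9 ± 64.2 CPM; Log2FC -0.68; adjusted p = 0.0122), though not in the authors' normalized values (Log2FC -0.53, adjusted p = 0.053), and so was the homeobox gene *Hhex* (47.4 ± 11.7 against 78.8 ± 14.4 CPM; Log2FC -0.73; adjusted p = 0.0134). The most abundant, *Ets1*, had a Log2FC of 0.16 (adjusted p = 0.541). *Rbpj* had one of -0.29 (adjusted p = 0.219), and the relatives of *Sox17*, *Sox7* and *Sox18*, had -0.17 (adjusted p = 0.381) and 0.14 (adjusted p = 0.784).

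The relatives of *Efnb2* and *Ephb4* were mostly weak. Of 7 further B-class ephrins and Eph receptors with *Epha4*, 3 were tested and 0 passed edgeR's test, with 2 at an unadjusted p under 0.05 and 2 called by DESeq2. *Efnb1*, the most abundant, was at 91.5 ± 41.7 CPM in GF and 54.4 ± 13.8 CPM in CONV-R mice (Log2FC 0.75, adjusted p = 0.0626). Of 20 other connexins and pannexins, 18 were listed and 2 tested, *Gjc1* (4.76 against 3.84 CPM, adjusted p = 0.712) and *Panx1* (1.69 against 0.85 CPM, adjusted p = 0.279).

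The genes most like each of the 8 across the 11 libraries, once group means were taken out, are given as a description, since the points share depth and composition and CONV-R 3 and GF 1 weigh on some of them. *Efnb2* was closest to *Ldb2* (Pearson r of 0.98), *Smarca2* and *Pitpnc1*, which without these libraries had an r of 0.94, 0.87 and 0.83. *Ephb4* was closest to *Scaf1* (0.98), *Ppil2* and *Notch1* (0.97), a Notch receptor on the arterial list, which had 0.96 without them. *Gja5* was closest to *Fbn1* (0.95), which encodes the matrix protein fibrillin-1, *Mecom* (0.93) and *Adgrg6*, with 0.91, 0.82 and 0.81 without them. *Gja4* was closest to *Qpctl* (0.89), *Ndufaf1* and *Brk1*, and its r with *Gja5* was 0.33, position 2599 in its own order. *Sox17* lay nearest *Tmsb4x* (0.95), *Ndufb3* and *Rpl39*, and had an r of -0.77 with *Ephb4*. *Nr2f2* lay nearest *Unc93b1* (0.96), *Mavs* and *Klk8*. *Gja1* came with *Pafah1b1* (0.93), *Gnai1* and *Scyl2*, and *Bmx* with *Col8a1* (0.93) and *Gm26910*. For those of *Nr2f2*, *Sox17*, *Gja1*, *Gja4* and *Bmx* named here, r without the 2 libraries ran from 0.84 to 0.98.

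Markers of Kupffer cells, the macrophages of the sinusoid, were also higher in GF mice. Of the 10 on the list 7 passed the test (3 without GF 6, and 4 without CONV-R 2, 4 or 5) and were higher, against 4.8% of all tested genes, among them *Csf1r* (66.1 ± 48.5 against 18.2 ± 9.4 CPM; adjusted p = 0.00589), and the most abundant was *Clec4f* (105.5 ± 85.4 against 35.9 ± 17.4 CPM; adjusted p = 0.0262). None of the 10 was at 0 over a whole group. Their sum among GF mice was lowest in GF 4 (196.8 CPM, with 177.8 CPM of *Gja4*) and highest in GF 6 (930.7 CPM, with 201.8 CPM of *Gja4*, the highest of all mice). Among CONV-R mice the sum was lowest in CONV-R 4 (86.0 CPM) and highest in CONV-R 1 (222.4 CPM). These 2 mice also had the lowest and the highest *Gja4* of their group (67.1 and 130.9 CPM). The part of these cells in the difference of *Gja4* was not tested. Markers shared by all ECs summed to 24570 to 30320 CPM in CONV-R and 24380 to 34090 CPM in GF mice. Of these 10 genes *Esam* (Log2FC 0.62, adjusted p = 0.0261) and *Robo4* (0.51, adjusted p = 0.0336) were higher, while *Ptprb*, the most abundant, had a Log2FC of 0.07 (adjusted p = 0.714). Of the tested smooth muscle (3) and stellate cell (4) markers 0 passed edgeR's test, with 0 and 1 at an unadjusted p under 0.05 and 0 and 1 called by DESeq2, and with summed levels of 65.9 to 105.0 and 56.6 to 95.5 CPM in CONV-R and 74.4 to 101.5 and 67.0 to 89.9 CPM in GF mice.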

How the data were processed

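RNA of sorted liver ECs was sequenced for 6 CONV-R and 5 GF mice (single-end reads, whole-transcriptome amplification). After trimming, the authors aligned reads to GRCm38 using STAR and used featureCounts for gene counts; the deposited counts are not normalized. The authors also deposited log2 values normalized across libraries with the DESeq method, used here in 1 alternative. They left out 1 further GF library for its low number of mapped reads. The annotation release and strand setting are not given in the sources used here. The labels name TruSeq for library preparation.

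Counts were analysed in R 4.3.3 with edgeR 4.0.16 (filterByExpr, TMM, quasi-likelihood test, Benjamini-Hochberg over all tested genes, threshold 0.05) with no covariate; intervals are 95% intervals. Alternatives used DESeq2 1.42.0 and limma 3.58.1, other filters and scalings, a replicate block, and mice left out. Per-length levels divide CPM by GENCODE M21 exon or coding length. Likeness used log2 CPM (prior count 2). Figures were drawn with matplotlib 3.10.9. The script was tested on simulated data. Libraries held 7242717 to 16164588 counts, so weakly counted genes carry counting error beside the spread between mice. The members and lists were chosen with earlier results of these data known. Named genes were the 8, from each list up to 4 called genes per direction by smallest p and its most abundant gene, the 3 genes most like each of the 8, and genes overlapping them; a few genes that this rule names are not reported here. Protein sequences were not used here.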

Additional observations from a re-analysis of the deposited data

Results flagged for a closer look

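In 16 sets of CPM (8 genes in 2 groups), 4 held 1 mouse that lay further from the others than Dixon's 95% criterion allows, where chance flags about 1 set in 20. For 3 of these the mouse was CONV-R 3. Its *Efnb2* was 92.1 CPM with the next CONV-R mouse at 172.2, its *Nr2f2* was 542.3 CPM with the next at 406.9, and its *Sox17* was 291.5 CPM with the next at 226.3. The fourth was *Gja5* in GF 1, at 75.9 CPM with the next GF mouse at 36.6. CONV-R 3 also lay apart on the second principal component over all genes and had the lowest total of its group, 7922855 counts, whereas GF 1 had the highest total of all libraries, 16164588 counts. The part of depth in these values was not tested.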

How the results depend on the processing

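*Gja4* passed the threshold in every fit run. *Gja5* joined it under DESeq2, with no filter and with the replicate block, which leaves out CONV-R 3 because GF has no such number, so that 2 of the 8 genes were called in each, and with 1 mouse left out 1 to 3 were called: *Gja5* without CONV-R 5, GF 2 or GF 5, and *Sox17* without GF 5. Over all tested genes, DESeq2 called 1527, and 622 to 1260 were called with 1 mouse left out, lowest without GF 6 and next lowest without CONV-R 4. The arterial list had 5 higher genes when each library needed 10 counts, since 4 of its called genes did not pass that filter. The Kupffer list had 4 higher genes in the authors' normalized values and 3 to 8 with 1 mouse left out, lowest without GF 6; the cause was not tested. The Log2FC of *Gja1* turned positive under voom (0.0098), with counts drawn down (0.0313) and in the authors' values (0.0232), and ran from -0.0844 to 0.099 with 1 mouse left out. That of *Bmx* was -0.0038 without CONV-R 3 and GF 1. Per kilobase of coding length, the log2 ratio of *Efnb2* to *Ephb4* turned to 0.88 in CONV-R and 0.95 in GF mice, and that of *Sox17* to *Nr2f2* to -0.88 and -0.91. The latter, 0.03 in GF mice per exon length, ran from -0.16 to 0.0948 with 1 mouse left out. Same-numbered libraries did not pair: over 5 pairs their deviations from the group means correlated at -0.01 to 0.20, and 2 of 5 correlated best with their own number. With the replicate block the adjusted p of *Gja5* was 0.0353, against 0.0853 in the same libraries without it, and it changed no other call among the 8 genes. *Erg* lost its call in the authors' values. With every library thinned to the smallest total, 1 of the 8 genes and 8 of the arterial list were called.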

Other observations

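Markers of bile duct cells, hepatocytes, B cells and platelets were weak in the sorted cells. The bile duct marker *Spp1*, which encodes the secreted protein osteopontin, was 5.64-fold higher in GF mice (13.2 ± 1.0 against 2.47 ± 3.04 CPM; adjusted p = 0.0161, edgeR), and of the other 6 duct markers only *Krt19* could be tested (4.52 ± 5.72 against 0.59 ± 0.50 CPM; adjusted p = 0.0959). The summed level of the duct markers ran from 0.82 to 9.21 CPM in CONV-R and from 13.7 to 38.0 CPM in GF mice. Hepatocyte markers summed to 24.1 to 63.2 CPM in CONV-R and 32.5 to 71.0 CPM in GF mice, led by *Alb* with 28.0 and 32.7 CPM (adjusted p = 0.6). The B cell genes *Ms4a1*, *Cd79b* and *Cd79a* each had a negative Log2FC, with adjusted p between 0.2 and 0.328. Platelet markers summed to 7.52 to 12.5 CPM and 6.47 to 14.8 CPM. Of the tested hepatocyte (9), platelet (3) and lymphatic (4) markers 0 passed edgeR's test, with 1, 0 and 2 at an unadjusted p under 0.05 and 0 called by DESeq2. Of the 7 lymphatic markers 3 are also on other lists, among them the most abundant, *Flt4* (Log2FC 0.41, adjusted p = 0.0816), while *Pdpn* and *Ccl21a*, which define lymphatic vessels, had 0 and 1 counts over all CONV-R and 8 and 0 over all GF libraries.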
